A study of Arabidopsis thaliana with 6 samples.

Results

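The comparison described here sets 2 liquid media against each other after 5 days of culture of Arabidopsis thaliana cells. It uses 2 of the 6 arrays of the series, chosen by their source names, 1 for the medium called high differentiating and 1 for the medium called low differentiating. All 22746 probe sets other than controls were compared, of 22810 on the array. Both cultures came from ecotype Ler (stock NW20). Leaves of seedlings aged 14 to 17 days were first kept for 2 weeks in darkness at 22 °C on callus medium with 2.0% glucose, 0.5 mg/l of 2,4-D and 0.05 mg/l of kinetin. The callus then went into shaken liquid medium (105 rpm) with 0.2% sucrose and 4% mannitol, which both media share. The high medium added auxins at 0.2 mg/l (2,4-D, NAA and IAA are named) and the cytokinin benzyladenine (BA) at 1 mg/l. The low medium added 0.5 mg/l of 2,4-D and 1.5 µg/l of kinetin. The media thus differ in the kind and the amount of cytokinin and in their auxins, of which 2,4-D is named for both. The labels are not uniform, since their growth text gives the hormones of the high medium for every sample and their extraction text speaks of seedlings. The medium of each array was therefore taken from its source name. The 4 other arrays hold the callus at day 0, the high medium at days 2 and 9 and the low medium at day 9.

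Auxin triggers the breakdown of the Aux/IAA repressors and soon induces their genes, those of GH3 enzymes, which tie surplus auxin to amino acids, and those of LBD factors. Cytokinin induces type-A response regulators, which damp its own signal. In culture, a suitable balance of the hormones can turn callus or mesophyll cells into tracheary elements, the water-conducting cells of xylem, which build a patterned secondary wall of cellulose, xylan and lignin and then die. The series title speaks of trans-differentiation and names no cell type that the arrays could be checked against by its main markers. Of 34 cell type markers listed, 6 have a named probe set here. ACR4 of epidermis, EXPA7 and EXPA18 of root hairs, FAMA of guard cells and CLV3 of the shoot meristem lay at the floor on both day 5 arrays, and the phloem gene OPS is described below. No marker of xylem, cambium, root meristem, mesophyll or seed has a named probe set, so the kind of cell in either medium could not be checked. In such bulk RNA, fewer cells of a type and less RNA per cell cannot be told apart.

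Values are hybridisation intensities on a linear scale, which have no unit. Those below 24.7 were raised to this floor before log2 was taken. A log2 ratio is high over low medium, and a probe set was counted as different at 2-fold, a log2 ratio of 1. With 1 array a side there is no replicate check on any difference, no error can be given and no test was made. Where 1 of the arrays read at or under the floor, the ratio bounds the difference from below and is introduced by at least. Where both did, the gene has no ratio. The number of arrays limits the precision.

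The arrays resembled each other over most of the genome. Over the 13167 probe sets above the floor on both, the log2 values had a Pearson correlation of 0.973, and 93.1% of these probe sets lay within 1.5-fold. Probe sets within an array are not independent of each other. Their log2 ratios had a median of -0.02, quartiles of -0.19 and 0.14 and an SD of 0.34 across probe sets. The reference genes TIP41L (AT4G34270) and SAND (AT2G28390) had log2 ratios of -0.16 and -0.02. At least 2-fold higher in high medium were 174 probe sets (0.765%), and 90 were at least 2-fold lower (0.396%). Near the threshold, 58 higher and 37 lower probe sets lay between 2-fold and 2.2-fold, and 86 and 88 lay between 1.8-fold and 2-fold.

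The arrays also differed in ways that bear on these counts. The low medium array had a scan background of 105.5, against 78.1 for the high medium array and 69.0 to 82.0 for the 4 others. The 18 hybridisation spike probe sets, which report RNA added in a set amount, read higher on the high medium array in 18 of 18 cases, by a median of 1.53-fold (1.30 to 2.26). These probe sets read the same few added RNAs several times each, so they are not independent readings. Made equal, they lower the log2 ratio of each probe set that stays above the floor on both arrays by 0.61, and the median of all probe sets by 0.33. The counts are then 41 higher and 981 lower, so that 4.01% of the differing probe sets are higher, against 65.9% with the scaling as deposited. For probe sets that stay above the floor on both arrays, log2 ratios between 0 and 0.61 thus change sign with this scaling. With the low medium array of day 9 in place of that of day 5, the counts are 207 and 147. This swap, used below as well, changes the day of culture along with the array. The part of background and scaling in the single results was not tested. Differing probe sets lay at every level of brightness. Among the 3292 dimmest of those above the floor on both arrays, 31 were higher and 27 lower, and among the 3292 brightest 26 and 10.

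**Figure D1:**
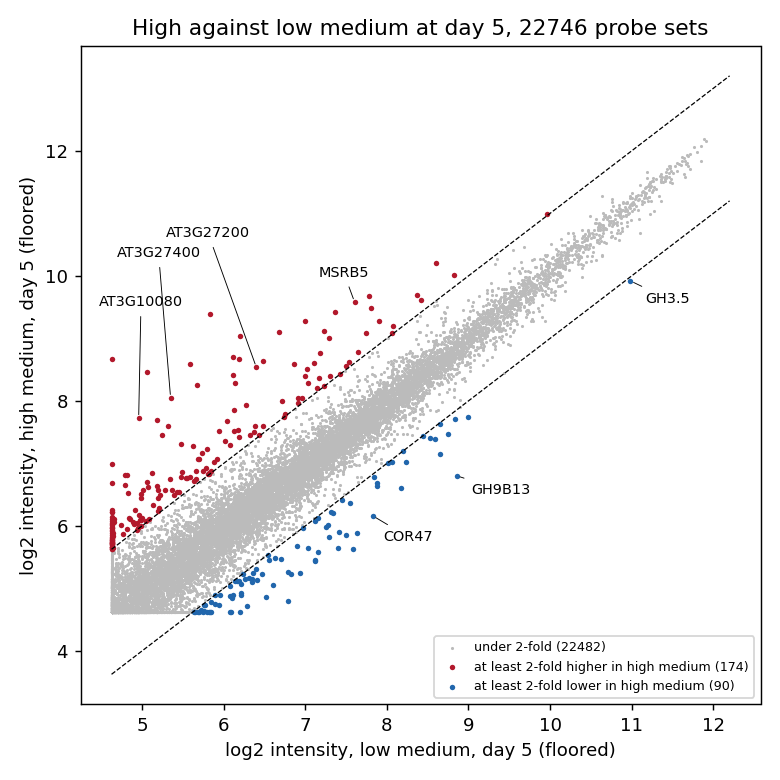
Floored log2 intensity of 22746 probe sets in high medium (vertical axis) against low medium (horizontal axis) at day 5, 1 array each. Dashed lines mark 2-fold, with 174 probe sets at or above the upper line (red), 90 at or below the lower line (blue) and the rest in grey.

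Names were available for part of the differing probe sets. Of the 174 higher ones 98 (56.3%) are unnamed here and 4 match several genes, and of the 90 lower ones 55 (61.1%) are unnamed. With 1 probe set for each of 13355 named genes, 72 genes were at least 2-fold higher (0.539%) and 35 were lower (0.262%). Of these, 55 higher and 27 lower genes were above the floor on both arrays. The gene counts are 15 and 500 with the spike controls made equal, and 89 and 71 with the low medium array of day 9 in place. With the spike controls made equal 238 genes read higher and 7370 lower, and the median over all genes is -0.22.

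The leading named genes in high medium were a germin-like gene, a pectate lyase gene described further on, a basic secretory protein gene and a plastocyanin-like gene. The first, AT3G10080, read 211 in high and 31.1 in low medium, a log2 ratio of 2.76. AT2G15220, of the plant basic secretory protein family, read 175 and 37.9, 4.61-fold higher. AT3G27200, which encodes a plastocyanin-like copper protein, read 371 and 84.5 (2.14). In AT3G10080 the high medium array matched callus, at 209, and the low medium array lay below it, whereas AT2G15220 read 40.3 in callus, near the low medium array. AT2G01610, an inhibitor of pectin methylesterase or invertase by family, read 113 against 27.6. AT1G02360, of the chitinase family, read 112 against 28.2, and the genes AT2G19990 (PR-1-LIKE) and AT2G19970, whose family includes the pathogenesis protein PR1, had log2 ratios of 1.83 and 1.41. The low medium values of AT2G01610 and AT1G02360 were close to the floor, so their ratios rest on dim signal on that side.

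Proteases, enzymes and regulators stood among the leading genes too. MSRB5, a methionine sulfoxide reductase that repairs oxidised proteins, read 765 in high and 195 in low medium (log2 ratio 1.97). AT3G61820, an aspartyl protease gene, read 516 and 157 (1.72), and AT1G68360, of a C2H2 zinc finger factor, read 554 and 150.3 (1.88). All 3 were bright on both arrays, and for MSRB5 and AT3G61820 the low medium array was the one apart from callus, which read 960.3 and 501. The low medium array also read low for AT3G13610, whose enzyme hydroxylates feruloyl-CoA on the way to the coumarin scopoletin, at 36.2 against 99.2 in high medium and 243 in callus. The membrane transporter gene AT2G39210 read 437 and 145, and AT5G59845, of the gibberellin-regulated GASA family, 134 and 52. In these 2 genes the high medium array was the highest of all 6.

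A further 17 higher genes lay at the floor in low medium, so their ratios are bounds. The brightest in high medium was the acyltransferase gene AT2G40230, at 103 against 18.5, at least 4.18-fold higher. AT4G23670, of the Bet v 1-like lipid-binding family, read 53.2 against 0.8, and it was below the floor on the 4 other arrays as well. BGLU28, a beta-glucosidase that acts on glucosinolates, read 66.2 against 18.7, and GSTU25, a glutathione transferase, 50.8 against 23. GSTU25 read 612 in callus, far above either medium at day 5, and its direction turns with the low medium array of day 9 (66.3) in place. The 27 higher genes not named here by the rule had log2 ratios of 1.00 to 1.34.

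**Figure D2:**
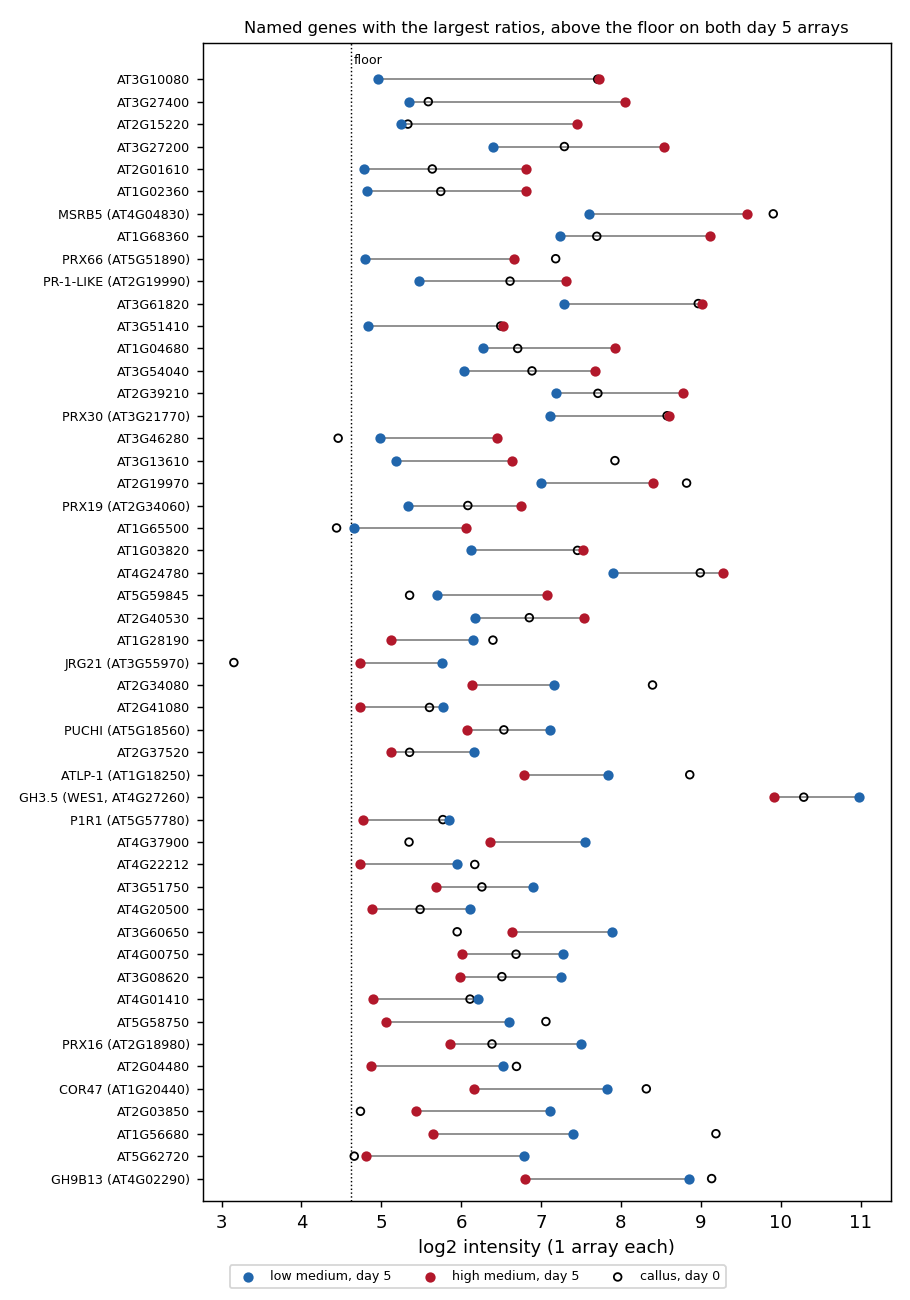
Log2 intensity of the 25 higher (top) and 25 lower (bottom) genes with the largest log2 ratios among those above the floor on both day 5 arrays, 1 array a point, in high medium (red), low medium (blue) and callus at day 0 (open circles). The dotted line is the floor, and the grey bar between the media spans a log2 ratio of 2.76 for AT3G10080 and of -2.05 for GH9B13.

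Pectate lyases, which cut unesterified pectin in the wall, held 3 of the 72 higher genes. Of 26 known members 22 were measured, 12 of them at the floor on both arrays, 3 (13.6%, against 0.539% of all genes) were at least 2-fold higher and 0 lower. Like the other lists here, this family was chosen with earlier results of these data known. Its share is therefore no independent evidence. AT3G27400 read 264 in high and 40.8 in low medium (log2 ratio 2.70). AT1G04680 read 244 and 77.5 (1.65), and AT4G24780 read 622 and 239 (1.38). In all 3 the low medium array lay below callus, which read 48.1, 105 and 509.7, and the day 2 array of high medium was the highest of the series. Of the members with a ratio, 8 read higher and 2 lower in high medium, against 3554 and 4322 of all genes. With the spike controls made equal the split is 3 and 6, against 238 and 7370 of all genes, and 2 members still pass 2-fold. The members AT4G13210 and AT3G55140 had log2 ratios of 0.19 and 0.29, which turn negative with that scaling. The median over the 22 members was 0.00, as over all genes, since 12 of them lay at the floor.

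Class III peroxidases, which use hydrogen peroxide to cross-link or loosen walls and to polymerise lignin, numbered 73, of which 55 were measured and 25 lay at the floor on both arrays. At least 2-fold higher were 5 (9.09%, against 0.539% of all genes) and 1 was lower (1.82%, against 0.262%). This family too was chosen with earlier results of these data known, so these shares are no independent evidence. PRX66, a peroxidase of vessel lignification, read 101 in high and 27.8 in low medium (log2 ratio 1.86). PRX30 read 389 and 138 (1.49), and PRX19 read 108 and 40.5 (1.41). Callus read 145 for PRX66, above the high medium, and 382 for PRX30, close to it, and the low medium array was the one that stood apart. PRX49 read 80.5 and 35.1 (1.20). PRX52, another lignin peroxidase, read 67.2 and 29.6 (1.18), and here high medium at day 5 was the highest of all arrays and callus lay below the floor. PRX16 went the other way, at 57.9 in high and 181 in low medium (-1.64), the latter being its highest value in the series. Of the 30 members with a ratio 22 read higher and 8 lower in high medium, against 3554 and 4322 of all genes. With the spike controls made equal the split is 9 higher and 16 lower, against 238 and 7370 of all genes. With that scaling 1 is at least 2-fold higher and 1 lower, and with the low medium array of day 9 in place 5 are higher and 0 lower. The median over all 55 was 0.00.

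Genes of the secondary wall were represented by 2 lists. Of 29 genes that build or regulate this wall 6 were measured, 0 of them passed 2-fold, and their median log2 ratio of 0.16 becomes -0.20 with the spike controls made equal. The xylan synthesis gene IRX10 (GUT2) read 94 in high and 80.6 in low medium, its close copy IRX10-L (GUT1) 139 and 138, and IRX15-L 30 against a floor value in low medium, while IRX15 lay at the floor on both arrays. C3H14, a zinc finger factor that activates wall genes, read 50.1 against 29.3, the largest log2 ratio of this list (0.77), and the membrane protein gene DMP4 had 0.09. The second list holds genes known for expression alongside the secondary wall, and since it was written with results of these arrays known, its direction is no independent evidence. Of its 28 members 15 were measured, 4 (26.7%, against 0.539% of all genes) were at least 2-fold higher, 0 were lower and 6 lay at the floor on both arrays. The median over the 15 was 0.26, against 0.00 over all genes, and it was 0.00 with the spike controls made equal, when 1 member is past 2-fold. With the low medium array of day 9 in place 6 are, and the median is 0.82.

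The 4 members past 2-fold were AT3G27200, AT4G27435, AT5G26330 and AT1G79620. AT4G27435, whose protein has a domain of unknown function, read 116 in high and 45.1 in low medium (log2 ratio 1.36). AT5G26330, another plastocyanin-like gene, read 60.2 against 15.8. AT1G79620, a leucine-rich repeat receptor kinase of vascular tissue, read 59.1 against 19.9, and for both genes the low medium value is below the floor. AT5G26330 and AT1G79620 were thus detected above the floor in high medium at day 5 only as dim signal, and they had read 203 and 155 at day 2. The other 5 members with a ratio read higher in high medium by less than 2-fold. Among them were AT5G40020, of the thaumatin family (0.63), AT5G60720 (0.48), the xylanase-like gene AT4G08160 (0.41) and AT2G41610 (0.26). All but AT5G40020 of these 5 turn negative with the spike controls made equal.

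Of 9 genes linked to xylem cell death 2 were measured, PRX66 and SCPL48, a serine carboxypeptidase gene. SCPL48 read 621 in high and 984 in low medium, a log2 ratio of -0.66, opposite to PRX66. Of 16 vascular patterning genes 4 were measured, with 1 (25%, against 0.539% of all genes) higher by 2-fold. The median of the 4, at 0.23, becomes -0.39 with the spike controls made equal. OPS, which acts in phloem formation, read 56 in high medium and 21.6, below the floor, in low medium, at least 2.27-fold higher. It read 40.4 in callus and, at day 9, 43.3 in high and 42.6 in low medium. With the low medium array of day 9 in place 0 of the 4 genes pass 2-fold, and 2 read higher and 2 lower. At day 5 the brassinosteroid receptor gene BRL1 read 281 in high and 225 in low medium. PHV, an HD-ZIP III factor of vascular and leaf polarity, read 258 and 236. LHW, a bHLH factor of vascular cell division, read 220.2 and 213. Their log2 ratios, 0.32, 0.13 and 0.05, all lay within 1.5-fold. Of 21 lignin and phenylpropanoid genes 3 were measured and 0 passed 2-fold, with HCT, which makes hydroxycinnamoyl esters for monolignols, at 339.9 and 407 (-0.26). CCR2, a cinnamoyl-CoA reductase gene, went the other way at 52.5 and 38.3 (0.45), a ratio that turns negative with the spike controls made equal. DFR, a dihydroflavonol reductase gene of anthocyanin synthesis, lay at the floor in high medium and read 31.3 in low medium.

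**Figure D3:**
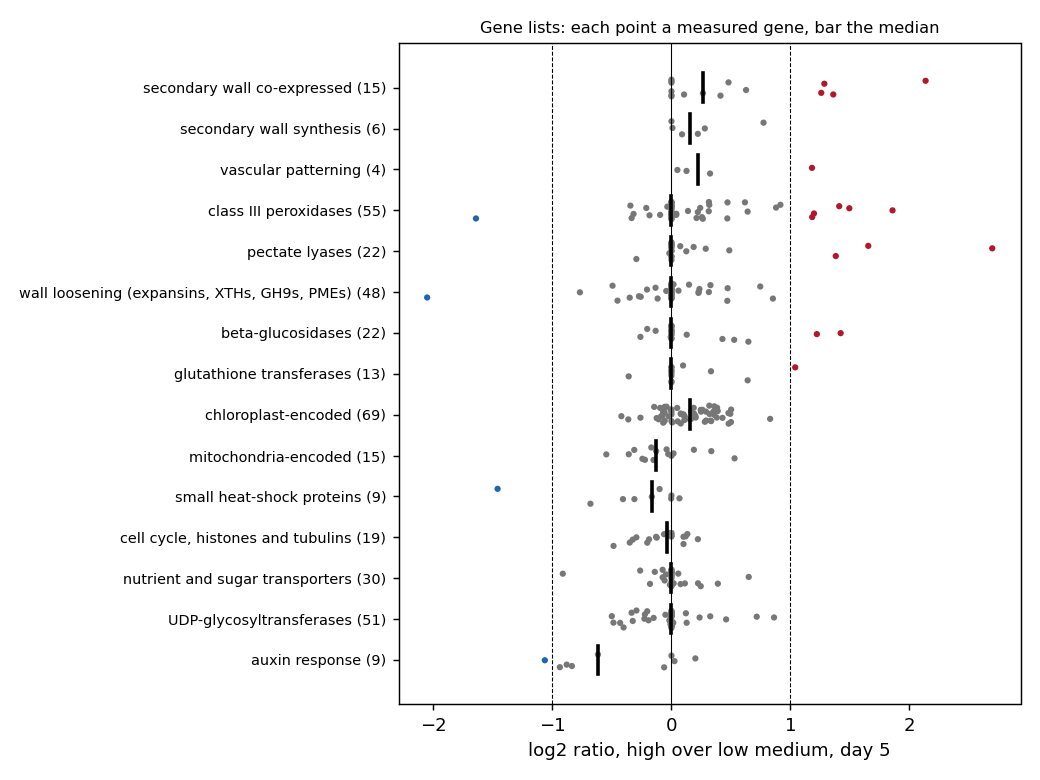
Log2 ratio of high over low medium at day 5 for each measured member (points, 1 array a side) of the gene lists, with the list median as a bar and 2-fold as dashed lines. Genes at the floor on both arrays sit at 0, 9 of the 15 measured secondary wall co-expressed genes lie to the right of 0, and 6 of the 9 auxin response genes lie to the left.

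Most of the measured auxin response genes read lower in high medium. Of 36 listed genes 9 were measured, with 6 lower, 2 higher and LBD29 at the floor on both arrays. Of all genes with a ratio, 54.7% read lower. The list median log2 ratio was -0.62, against 0.00 over all genes. Of the 9 genes 1 passed 2-fold, in the lower direction (11.1%, against 0.262% of all genes). That gene was GH3.5 (WES1), which conjugates auxin and salicylate to amino acids and read 969 in high and 2025 in low medium (-1.06), a bright signal on both. GH3.1 read 104 and 199.8 (-0.94). IAA20, an Aux/IAA gene, read 54.1 and 99.6 (-0.88), and LBD16, which starts lateral root founder cell division, 95.3 and 170.2 (-0.84). GH3.5, GH3.1 and LBD16 all read below callus in high medium and above it in low medium, against callus values of 1251, 165 and 137. The list was not uniform. GH3.3, the brightest member, read 2098 and 2062, IAA18 had a log2 ratio of -0.06, and IAA30 had one of 0.20. IAA29 was dim and read 32.2 and 49.4. PUCHI, an AP2/ERF factor of lateral root primordia, is outside this list and read 67.4 in high and 139 in low medium (-1.04). In the wider Aux/IAA, GH3, SAUR, LBD and ARF families, 17 of 184 genes were measured, 8 read lower, 2 higher and 7 lay at the floor, and GH3.5 was again the 1 past 2-fold. The auxin list median was -1.0 with the spike controls made equal, against -0.22 over all genes. It was -0.06 with the floor at the 60th percentile and -0.34 with a pseudocount of 32 in place of the floor. At day 9 the list median was -0.07, with 6 members lower and 2 higher in high medium. This list too was chosen with earlier results of these data known.

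Cytokinin-responsive genes had little coverage, with 2 of 30 measured, so no count of them can describe the response to 1 mg/l of BA. ARR15, a type-A response regulator, read 37.8 in high medium and 21.4, below the floor, in low medium, at least 1.53-fold higher and short of 2-fold. Its highest value was 65 in high medium at day 2, and it lay below the floor in callus and on both day 9 arrays. ARR16 lay at the floor on both day 5 arrays.

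**Figure D4:**
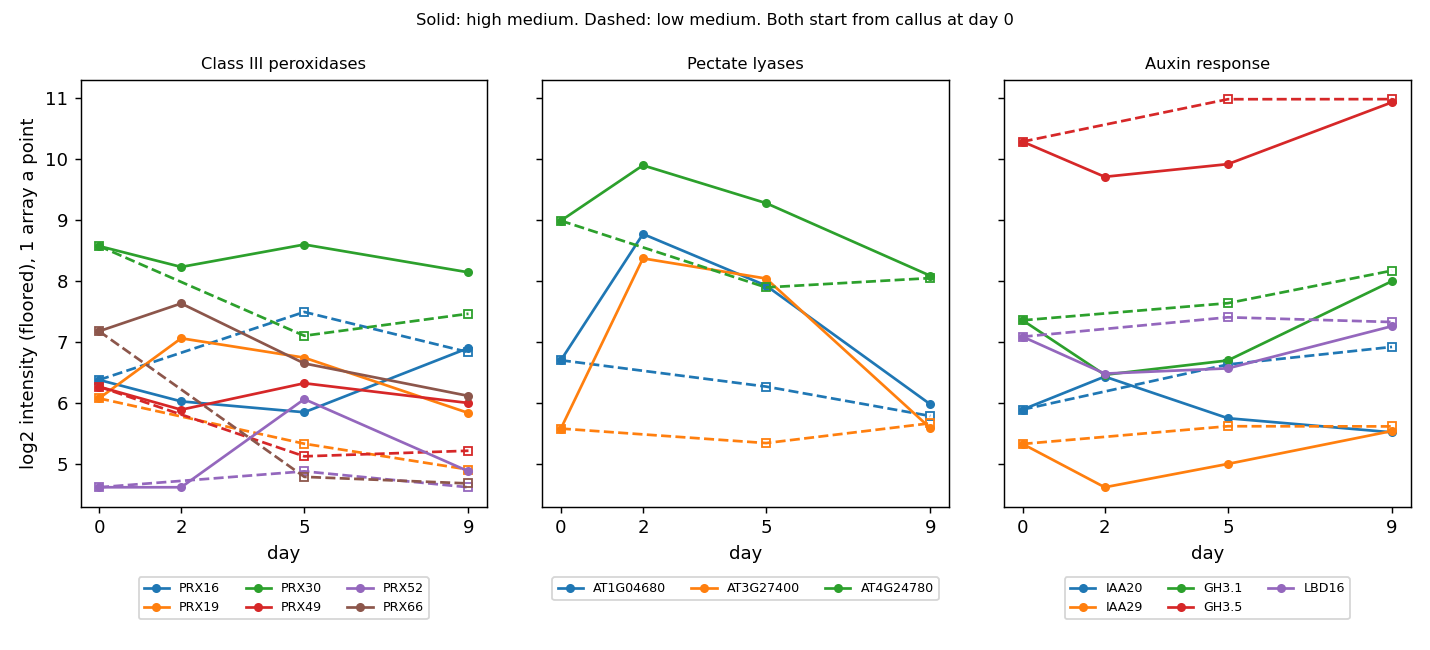
Log2 intensity over time, 1 array a point, for 6 peroxidase genes, 3 pectate lyase genes and 5 auxin response genes in high medium (solid, filled) and low medium (dashed, open), both starting from callus at day 0, with no low medium array at day 2. The genes were chosen by their day 5 ratio. The peroxidases and pectate lyases are those past 2-fold, and the auxin response genes are the 5 with the lowest ratios. The order of the lines at day 5 follows from this choice. Solid lies above dashed for all 3 pectate lyases and for the peroxidases other than PRX16, and below it for the 5 auxin response genes.

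The leading named genes in the other direction encode an endoglucanase, a membrane protein and a chitinase family member. GH9B13, an endoglucanase of the family that trims cellulose and other glucans, read 112 in high and 463 in low medium, a log2 ratio of -2.05. AT5G62720, of the HPP family of membrane proteins, read 27.9 and 110.1 (-1.98). AT1G56680, of the chitinase family, read 50.1 and 169.6 (-1.76). These 3 genes came to their difference from unlike starting points. GH9B13 read 563 in callus, above the low medium value and far above the high medium one. AT1G56680 read 584 there, above both media, and AT5G62720 25.3, below both. In AT5G62720 the low medium array of day 5 stood alone, since the 4 arrays other than the day 5 pair read 25.3 to 74.2.

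A dehydrin gene and a late embryogenesis gene, of families that act under water stress, were among the lower ones. Both media hold the same 4% of mannitol. COR47, a dehydrin that protects proteins and membranes in drying or freezing cells, read 71.6 in high and 227 in low medium (log2 ratio -1.67). AT2G03850, the late embryogenesis abundant family member, read 43.2 and 139 (-1.68). The list of osmotic stress and ABA genes had 3 of 24 members measured, and its members did not read alike, since the dehydrin gene LTI30 read 93.1 and 103 and COR15A lay at the floor on both arrays. AT5G47600, an HSP20-like gene, lay below the floor in high medium and read 68 in low medium, at least 2.75-fold lower. JRG21, a jasmonate-regulated oxygenase, read 26.6 and 54.3, and ATLP-1, a thaumatin-like protein, 111 and 229. The cysteine protease gene AT2G34080 read 70 and 143, both below the callus value of 337. The GDSL lipase gene AT1G54020 and TRM24, of a family that binds microtubules, lay below the floor in high medium and read 67.4 and 57.1 in low medium, with 43.5 and 50.7 in callus. The 2 lower genes left out by the naming rule had log2 ratios of -1.0 and -1.01.

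Other families gave few or no differences past 2-fold. Over all genes 0.539% were at least 2-fold higher and 0.262% lower, and 54.7% of those with a ratio read lower. Of 48 measured expansin, XTH, GH9 and pectin methylesterase genes, which loosen or remodel walls, GH9B13 alone passed 2-fold. The nearest others were XTH20, at 44.6 against a floor value in low medium, the pectin methylesterase gene ATPMEPCRB, at a floor value in high against 42.1 in low medium, and EXPB3, with a log2 ratio of 0.75. Among 22 measured beta-glucosidases, BGLU28 and BGLU44 (109 and 46.9, log2 ratio 1.22) were at least 2-fold higher, and PYK10, the main protein of ER bodies, read 2497 and 1595 (0.65). Of 3 measured homeobox genes HAT3.1 passed, at 61.5 and 30.6 (1.01), and the auxin-inducible HAT2 had a log2 ratio of -0.40. SWEET1, a glucose transporter, read 36.8 in high and 69.3 in low medium (-0.91), and 0 of 30 measured sugar and nutrient transporters passed 2-fold. The counts past 2-fold were also 0 for 51 UDP-glycosyltransferases, 19 cell cycle, histone and tubulin genes, 8 nuclear photosynthesis genes, 7 WRKY factors, 7 bHLH factors and 5 genes of sugar starvation. Among 13 glutathione transferases GSTU25 was the 1 that passed. Of the 9 measured small heat-shock genes, which bind unfolded proteins, 7 read lower in high medium, 1 higher and 1 lay at the floor, with a median of -0.16 that becomes 1.04 with the low medium array of day 9 in place, and AT5G47600 was the 1 past 2-fold. The very bright AT1G53540 read 2345 and 2349. These medians were set on floored values and equal 0.00 where members at the floor prevail.

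The organelle genomes were measured more fully and differed little. Over all genes 3554 read higher and 4322 lower in high medium. All 69 listed chloroplast genes were measured, of which 46 read higher and 19 lower in high medium, 0 past 2-fold. Their median log2 ratio of 0.16 becomes -0.42 with the spike controls made equal and -0.15 with the low medium array of day 9 in place. psaJ, of photosystem I, had the largest, at 421 and 237 (0.83), and psaA had -0.42. Of 15 mitochondrial genes 4 read higher and 10 lower, 0 past 2-fold, with a median of -0.13 that becomes 0.57 with the low medium array of day 9 in place, and nad4 (0.53) and ccb203 (-0.55) marked the ends. Among control probe sets, 25S ribosomal RNA read 3716 in high and 3023 in low medium and 5S ribosomal RNA 79.9 and 27.1. GAPDH control probe sets at both ends of the transcript, a sign of RNA integrity, gave a 3' to 5' ratio of 1.09 in high and 1.14 in low medium.

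The 4 other arrays place the day 5 levels in the course of the culture. Of the 72 higher genes, 37 had their highest value in high medium at day 2, 26 in high medium at day 5 and 9 in callus. The low medium array of day 5 held the lowest value for 44 of them and that of day 9 for 20. The median of the 174 higher probe sets was 84.9 in callus. It stood at 122.5 after 2 days and 112.4 after 5 days of high medium, and at 41.0 on the low medium array of day 5. At day 9 it was 69.2 in high and 51.2 in low medium, so that high medium read above callus at days 2 and 5 and below it at day 9, while low medium read below callus on both days. Of the 35 lower genes, 21 had their lowest value on the high medium array of day 5 and 7 on that of day 2, while 13 and 12 had their highest on the low medium arrays of days 5 and 9. The median of the 90 lower probe sets was 83.0 in callus. It stood at 54.4 after 2 days and 38.2 after 5 days of high medium, and at 98.1 on the low medium array of day 5. At day 9 it was 71.6 in high and 105.2 in low medium. Since the day 5 arrays chose these sets, the levels on those arrays are a description. The counts of highest and lowest values are partly fixed by that choice, and no such counts were made over all genes.

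Day 9 gives a second pair of arrays that shares none with day 5. Fewer probe sets differed there, 60 higher (0.264%) and 34 lower (0.149%), and the SD of the log2 ratio was 0.27 against 0.34 at day 5. Of the 174 higher probe sets 24 were at least 2-fold higher again, which is 13.8% of the day 5 set and 40.0% of the day 9 set, and 1 (AT5G19110) was lower. Of the 90 lower ones 14 were lower again, 15.6% and 41.2% of the sets, and 0 were higher. In sign alone, 125 of the 167 higher probe sets with a day 9 ratio (74.9%) read higher at day 9 too, and 74 of 90 lower ones (82.2%) read lower. Among the probe sets that did not differ at day 5, 48.8% read higher and 50.9% lower at day 9. The median log2 ratio at day 9 was 0.36 for the higher and -0.45 for the lower set, both smaller in size than the 2-fold that chose them at day 5.

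Of the 72 higher genes 9 were at least 2-fold higher at day 9 too, and of the 35 lower genes 8 were lower. Among the former were AT3G27200 (1.58), PRX66 (1.43), AT5G59845 (1.35), AT3G10080 (1.31), AT4G27435 (1.30) and AT3G54040 (1.11), each with its day 9 log2 ratio. Among the latter were COR47 (-1.77), AT2G34080 (-1.68), AT1G54020 (-1.35), AT1G56680 (-1.14) and AT4G00750, a methyltransferase gene (-1.05). The pectate lyase AT3G27400 had come back to 48.4 in high medium, close to 51.1 in low medium, and MSRB5 read 336 and 458, with the low medium now the higher. AT1G04680 and AT4G24780 had log2 ratios of 0.19 and 0.04. GH3.5 read 1956 and 2027 at day 9, so the media had come together at the level that low medium showed at day 5. IAA20 differed more at day 9 than at day 5, at 46.1 against 122 (-1.40). PRX16 and AT5G62720, both highest in low medium at day 5, had day 9 ratios of 0.07 and 0.98. Whether the day 5 and day 9 ratios differ was not tested, since each rests on 1 array a side.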

How the data were processed

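RNA from the cultures was labelled with biotin and hybridised to 1-colour ATH1 arrays, per the labels' protocols. The authors deposited 1 linear intensity for each of 22810 probe sets. How these were summarised and scaled, and with which software, is not stated in the labels or the table used. Their mean after trimming 2% at each end ran from 99.2 to 99.4 over the arrays, so the deposited scaling was kept. The 64 control probe sets were set aside. Values under 24.7, the median over the 6 arrays of the 40th percentile, were raised to it before log2 was taken. Ratios were computed with pandas 2.3.3 and numpy 2.4.6 and counted past 2-fold. A self-test on simulated arrays checked the counting. Scan background and noise came from the labels.

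GEO's platform annotation, updated through RefSeq (TAIR10.1 assembly), gives 1 gene for 13513 probe sets, several for 503 and none for 8730 (38.4%). Of the 13513, 13436 matched RefSeq. For each of 13355 genes the probe set with the highest mean over both day 5 arrays was used. Genes picked for naming were the 25 in each direction with the largest ratios above the floor on both arrays. The 15 brightest in each direction at the floor on 1 array and list members past 2-fold were added. So were members of 7 hormone, wall, vascular and stress lists above the floor on either array. The text describes part of the genes picked. AT5G19110, the transporters, XTH20, EXPB3, PYK10, HAT2, HCT, CCR2, ATPMEPCRB, the organelle and heat-shock genes and 2 pectate lyases under 2-fold were singled out after their values were seen. Families were drawn by locus or symbol from general knowledge. The members and lists were chosen with earlier results of these data known. Alternatives were 3 other scalings, with a lowess curve by statsmodels 0.14.6 among them, other floors, a pseudocount of 32, other thresholds, the mean of a gene's probe sets and another low medium array. A scaling on the spike controls was added after the data were seen. The value of 1 list member is not reported here.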

Additional observations from a re-analysis of the deposited data

Results flagged for a closer look

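AT5G19110, an aspartyl protease gene, had opposite signs on the 2 days. At day 5 the high medium array read 379 and the low medium array 182, a log2 ratio of 1.06, and at day 9 they read 167 and 382, a ratio of -1.19. The medians of several gene lists also had opposite signs on the days. The median of the vascular patterning genes was 0.23 on the first of these days and -0.12 on the second, with 4 of 4 members higher at day 5 and 3 of 4 lower at day 9. Homeobox genes had 0.13 and -0.16, over 3 members of which PHV belongs to both lists. Small heat-shock genes had -0.16 and 0.11, and mitochondria-encoded genes -0.13 and 0.23. Chloroplast-encoded genes had 0.16 and -0.04, and sugar starvation genes -0.07 and 0.08. None of these differences between days was tested, since each ratio rests on 1 array a side.

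Control probe sets outside the comparison also differed between the day 5 arrays. The hybridisation spike controls read a median of 1.53 times as bright on the high medium array. The 5S ribosomal RNA control read 79.9 against 27.1, a ratio of 2.95, and the 4 other arrays read from 11 in callus to 149 in low medium at day 9.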

How the results depend on the processing

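The counts of higher and lower probe sets, 174 and 90, depended on the floor, the threshold and the scaling. Lowering the floor to the 20th percentile gave 495 and 487, and raising it to the 60th gave 76 and 37. The counts were 75 and 27 with a pseudocount of 32, 557 and 538 at 1.5-fold, 44 and 12 at 3-fold, 207 and 147 with the low medium array of day 9 in place, and 41 and 981 with the spike controls made equal, an alternative added after the data were seen. With array medians made equal, quantile scaling or a lowess curve removed they ran from 191 to 192 and from 73 to 84. The share of higher among differing probe sets was 65.9%, 50.4% with the lower floor, 4.01% with equal spike controls, 50.9% at 1.5-fold, 78.6% at 3-fold and 58.5% to 73.5% under the other settings. The auxin response median was -0.061 with the higher floor, -0.34 with the pseudocount and -1.0 with equal spike controls. The cytokinin response median, over 2 genes, was 0.41 with the lower floor, 0.00 with the higher one and 0.0008 with equal spike controls. The secondary wall co-expressed median was likewise 0.41 and 0.00, 0.82 with the low medium array of day 9 and 0.00 with equal spike controls. Signs turned for secondary wall synthesis (-0.20), vascular patterning (-0.39), homeobox (-0.49) and chloroplast genes (-0.42) with equal spike controls, and from smaller medians or fewer genes for bHLH (-0.45), nuclear photosynthesis (-0.24) and xylem cell death genes (-0.016). They also turned for small heat-shock (1.04), homeobox (-0.36), chloroplast (-0.15) and mitochondrial genes (0.57) and GSTU25 (-0.38) with the low medium array of day 9. That swap sets day 5 against day 9, so it changes the day of culture as well as the array. Of the 78 genes past 2-fold picked for naming, 78 stayed past it with the lower floor, 30 with the higher one and 34 with the pseudocount. The numbers were 72, 76 and 70 under the 3 scalings named. With the low medium array of day 9 in place 59 stayed past it, and with equal spike controls 48 did. Taking the mean of a gene's probe sets moved each list median by under 0.1. The causes were not tested. No paired analysis was possible because each condition has 1 array and the labels carry no replicate numbers.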

Other observations

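The largest ratios in favour of high medium belong to probe sets that are unnamed here. In high and low medium at day 5, 259439_at read 409 and 15.5, the latter below the floor, a log2 ratio of at least 4.05, and 265561_s_at read 668 and 57.2 (3.55). The first was bright in high medium at day 5 and read 34.6 and 39.4 in high and low medium at day 9, whereas the second had read 1008 in high medium at day 2 and still differed at day 9, at 155.5 and 38.2. In the other direction 260230_at read 49.8 and 193 (-1.95), and 260492_at read 58.9 and 198 (-1.75). 260230_at read 258 in callus, above both media, and 260492_at 25.5, near the floor.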
